A study of Homo sapiens with 104 samples.

Results

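The oxidative phosphorylation system of the inner mitochondrial membrane was followed through the transcripts of its nuclear-encoded subunits, complex by complex, in human lymphoblastoid cells before and after MNNG. Members were genes whose only symbol in the platform annotation was NDUFA, NDUFB, NDUFC, NDUFS or NDUFV with a number, NDUFAB1, SDHA to SDHD, CYC1, or began with UQCR, COX4, COX5, COX6, COX7, COX8, ATP5F, ATP5M or ATP5P. The rule found 79 of 19775 genes with such a symbol. They were 77 subunit genes and 2 pseudogenes that share the symbols, ATP5MC2P1 and COX6A1P1, which are left out of the counts by complex. After the genes with the lowest mean level were left out, 75 of the 79 were tested among 13842 genes: 74 subunit genes and ATP5MC2P1. The 4 not tested were ATP5MF, COX7A1, COX8C and COX6A1P1. Their untreated levels had medians over the panel lines of 5.19 to 5.38 on the log2 scale, where the lowest possible value is 5.

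Complex I passes electrons from NADH to ubiquinone, and complex II does the same for succinate from the citrate cycle. Complex III hands the electrons on to cytochrome c, and complex IV gives them to oxygen. Complexes I, III and IV pump protons, and complex V, the ATP synthase, makes ATP as the protons flow back. A minority of the subunits, all of them in complexes I, III, IV and V, are encoded by mitochondrial DNA, and the array annotation held a probe set for 0 of the 13 of them. Complex I and ATP synthase are built from a conserved core or motor and many small accessory subunits around it, which are needed for assembly and stability.

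The cells were 26 lymphoblastoid lines, which are B cells kept in continuous culture, grown to mid log phase. Of these, 24 were numbered panel lines. TK6 is an established lymphoblastoid line. MT1 was derived from it by selecting survivors of an alkylating agent, and it is deficient in mismatch repair. Both lack MGMT, the protein that removes the methyl group MNNG puts on guanine, and each stands for its genotype as 1 line. Every line was hybridised untreated and after exposure to MNNG, a methylating agent, with 2 arrays for each. Neither the MNNG dose nor the exposure time was stated in the labels. The labels do not say whether duplicate arrays came from separate cultures. The p-values for TK6, MT1 and their differences, and those of the F tests between panel lines, may therefore reflect technical spread alone. The series was set up to look for expression differences between lines that bear on their survival of DNA damage.

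Levels are log2 of the deposited intensity plus 16 after quantile normalisation, and a change is the level after MNNG minus the level untreated. Of 52 MNNG arrays, 22 were left out because 2 probe sets for the same spiked-in cre transcript lay more than 2 log2 units apart in them. That difference was -5.91 to -4.96 in the arrays left out and 0.082 to 0.83 in the others. This left 82 arrays: 19 panel lines with a value before and after MNNG, both MNNG arrays of TK6, and 1 MNNG array of MT1. The 19 panel lines held 27 MNNG arrays: 8 lines kept both, and 11 kept 1, which was set against 2 untreated arrays. The loss was uneven: 17 lines kept an MNNG array of replicate 1 and 10 kept one of replicate 2. Replicate number was therefore not balanced between treatments in the panel change or in the test between lines. Duplicate arrays correlated with r = 0.965 to 0.996 across probe sets in 35 pairs. The mean over 6 B-cell markers in an array was 8.95 to 11.1 in untreated arrays and 9.00 to 10.9 after MNNG. The mean over 4 plasma cell markers was 6.95 to 9.56 and 7.02 to 9.77. The means over myeloid markers, over T or NK cell markers and over those of epithelia or fibroblasts lay between 5.53 and 6.65 in all arrays kept, with single markers above that over all arrays (KRT8 at 7.55, LYZ at 7.36 and COL1A1 at 6.95). LYZ, a myeloid marker, rose in the panel by 0.40 (limma adjusted p 0.0273) and GNLY, of T and NK cells, by 0.090 (limma adjusted p 0.0345), and their part in the results was not tested. In such cultures fewer cells of a kind and less RNA per cell cannot be told apart.

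In the panel, most subunit transcripts rose slightly after MNNG, and NDUFV1, UQCRC1, NDUFA10, ATP5F1D and ATP5F1B fell. Of the 74 subunit genes, 57 rose, 5 fell and 12 did not pass the test (limma over all 13842 genes, 19 lines with the line as a block, Benjamini-Hochberg adjusted p under 0.05). Of all genes tested, 28.7% rose and 13.8% fell. The median change of the subunits was 0.14 and that of all genes was 0.037. The changes were small: they ran from -0.26 for NDUFV1 to 0.31 for UQCR11. Measured against the median gene of each array, 48 subunits rose and 8 fell, where 18.0% of all genes rose and 22.3% fell. Without normalisation, on values as deposited, 52 rose and 2 fell. When the deposited values were centred on each array's median over all probe sets, 0 rose and 5 fell. That array median lay between intensities of 16.0 and 64.4, close to the floor of 16. With the 22 arrays put back 15 rose and 42 fell. Without replicate 1, which left 10 lines, 29 rose and 1 fell, and without replicate 2 the falls were 2.

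Most subunits are among the brighter transcripts, so the change of other bright genes is given beside theirs. The other 4986 genes whose mean level lay between the 5th and 95th percentile of the subunits (7.70 to 11.97) had a median change of 0.042, and 38.8% of them rose and 22.0% fell. On values as deposited the 4980 other genes in that range had a median change of 0.065, and the subunits 0.14. The median of all genes was 0.13 on that scale, so there the subunits stood above the genes of their own level but hardly above the median gene. The level range was chosen after the values had been seen. Genes of that range were compared for the changes in the panel, TK6 and MT1 only. For the other comparisons only the share of all genes is given, which includes dimmer genes.

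**Figure D1:**
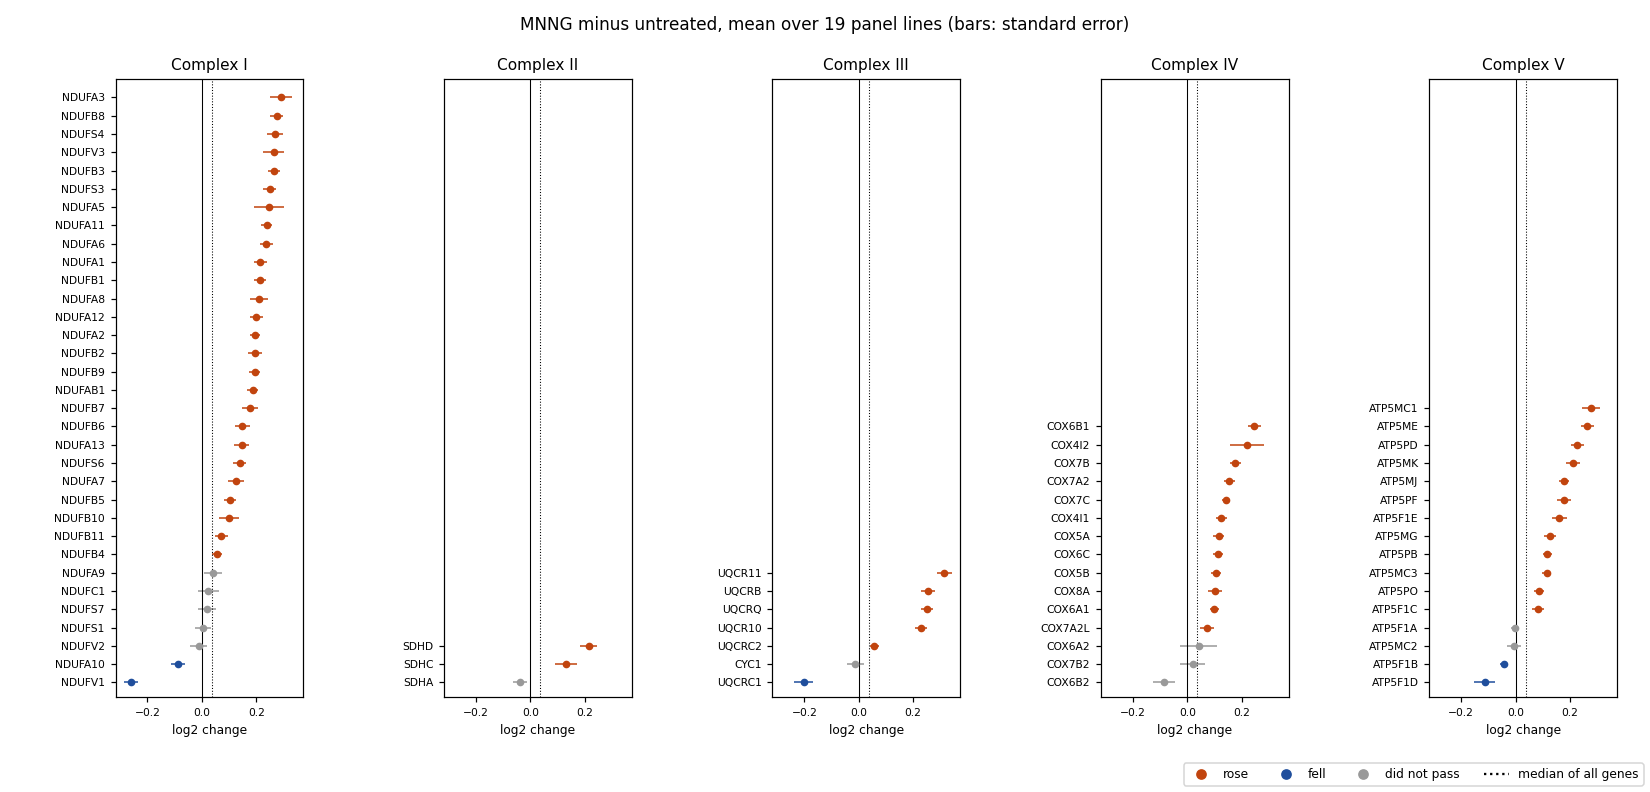
Change after MNNG of the 74 subunit genes in the panel, in 5 panels by complex. The horizontal axis is the log2 change (mean over 19 lines, bars are standard errors), each row is a gene, and colour gives the call; the dotted line is the median of all genes at 0.037. Rows to the right of 0 dominate in every complex, while NDUFV1 at -0.26 and UQCRC1 at -0.20 lie farthest to the left.

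Complex I held 33 of the tested subunits, of which 26 rose, 2 fell and 5 did not pass, with a median change of 0.19. NDUFA3, a small accessory subunit of the membrane arm, had levels over the 19 lines from 9.07 to 10.00 untreated (median 9.54) and from 9.31 to 10.19 after MNNG (median 9.80). It was higher after MNNG in 19 of 19 lines, although the ranges of the groups overlapped, and its change of 0.29 ± 0.040 (SE) had a limma adjusted p of 4.27e-06. NDUFB8, an accessory subunit of the membrane arm whose protein is often used as a marker of assembled complex I, ran from 10.73 to 11.08 untreated (median 10.88) and from 10.90 to 11.27 after MNNG (median 11.17). Its change was 0.27 ± 0.023, up in 19 of 19 lines (limma adjusted p 1.33e-08). NDUFS4, an accessory subunit of the matrix arm, changed by 0.27 ± 0.028, up in 19 of 19 lines (limma adjusted p 1.42e-07). NDUFB3, another membrane arm subunit, ran from 10.09 to 10.58 untreated (median 10.40) and from 10.39 to 10.82 after MNNG (median 10.60). It also rose in 19 of 19 lines, by 0.26 ± 0.022 (limma adjusted p 1.33e-08). After deposited values were centred on array medians none of these 4 passed. Their changes were then 0.11 to 0.13. Without replicate 1 NDUFA3, at 0.27, did not pass, and without replicate 2 it was at 0.44.

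The core subunits of complex I are those conserved from bacteria, and most of the nuclear-encoded ones carry the flavin or an iron-sulfur cluster. Of the 5 core subunits tested, NDUFS3 rose by 0.25 ± 0.025, NDUFV1 fell, and NDUFS1, NDUFS7 and NDUFV2 did not pass. Of the 28 other complex I subunits, 25 rose, 1 fell and 2 did not pass, and the difference between these kinds of subunit was not tested. NDUFV1 binds NADH and the flavin and is where electrons enter the complex. Its levels ran from 10.00 to 10.42 untreated (median 10.29) and from 9.67 to 10.19 after MNNG (median 10.03). It was lower after MNNG in 19 of 19 lines, with changes of -0.47 to -0.071, and its mean change was -0.26 ± 0.025 (limma adjusted p 4.83e-08). It fell on values as deposited too, where its change was -0.26. NDUFA10, an accessory subunit, changed by -0.088 ± 0.026, down in 16 of 19 lines (limma adjusted p 0.00979). It did not pass on values as deposited, and the mean of its probe sets changed by 0.0020. Nor did it pass without replicate 1, at -0.11, or without replicate 2, at -0.024. NDUFA9, an accessory subunit at the junction of the arms, ran from 9.21 to 9.90 untreated (median 9.83) and from 9.47 to 10.00 after MNNG (median 9.81). Its change of 0.041 ± 0.032 did not pass (limma adjusted p 0.321). It was at -0.013 without replicate 1, and passed without replicate 2, at 0.095, and without line 4, at 0.065.

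Probe sets disagreed for some members. Of the 79 members 43 had several probe sets, and for 3 of these, NDUFB8, NDUFS1 and UQCRC2, probe sets were called in opposite directions in the panel. For NDUFB8 the probe set used changed by 0.27, the next by 0.084 and the dimmest by -0.11. For NDUFS1, the largest core subunit, the probe set used changed by 0.0039, another by 0.28 and a dimmer one by -0.38. For UQCRC2, a core protein of complex III, the values were 0.056, 0.10 and -0.31. The second probe set of NDUFV1 was near background, at a mean level of 5.60, and its change of 0.0063 did not pass.

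Complex II held 3 tested subunits. SDHD, a membrane anchor that binds ubiquinone with SDHC, rose by 0.21 ± 0.032 in 18 of 19 lines (limma adjusted p 1.13e-05), and SDHC by 0.13 ± 0.041 in 16 of 19 lines (limma adjusted p 0.0130). SDHC did not pass when measured against the median gene or with the mean of its probe sets, and its change was -0.022 on deposited values centred on array medians. Without replicate 1 neither gene passed, with SDHD at 0.14 and SDHC at 0.024. SDHA, the flavin-carrying subunit that oxidises succinate, changed by -0.037 ± 0.026 and did not pass.

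In complex III 5 of 7 subunits rose, 1 fell and 1 did not pass, with a median of 0.23. All 4 small accessory subunits rose. UQCR11 ran from 10.18 to 10.72 untreated (median 10.47) and from 10.42 to 11.05 after MNNG (median 10.78), was higher in 19 of 19 lines, and changed by 0.31 ± 0.027 (limma adjusted p 1.81e-08). UQCRB changed by 0.25 ± 0.026 and UQCRQ by 0.25 ± 0.022, up in 18 and 19 of 19 lines (limma adjusted p 1.01e-07 and 2.09e-08). UQCR10 rose by 0.23. CYC1, the cytochrome c1 that reduces cytochrome c, changed by -0.014 ± 0.031 and did not pass. UQCRC1, a large core protein on the matrix side, ran from 9.82 to 10.41 untreated (median 10.26) and from 9.60 to 10.20 after MNNG (median 9.99). It was lower in 17 of 19 lines, with overlapping ranges, and changed by -0.20 ± 0.035 (limma adjusted p 5.74e-05). UQCRC1 did not pass without replicate 1, where 10 lines were left and the change was -0.20, nor without replicate 2, where 17 were left and it was -0.087.

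In complex IV 12 of 15 subunits rose, 0 fell and 3 did not pass, with a median of 0.11. COX6B1, the subunit on the intermembrane face, ran from 10.98 to 11.24 untreated (median 11.15) and from 11.19 to 11.56 after MNNG (median 11.39). It rose in 19 of 19 lines by 0.25 ± 0.022 (limma adjusted p 2.78e-08), and COX7B by 0.18 ± 0.021. The widespread forms COX4I1, COX6A1, COX7A2 and COX8A rose by 0.13, 0.10, 0.15 and 0.10. COX4I2, the lung and low-oxygen form of subunit 4, ran from 6.19 to 7.19 untreated (median 6.92) and from 6.79 to 7.35 after MNNG (median 7.09) and changed by 0.22 ± 0.062 (limma adjusted p 0.00594), with a range over lines of -0.40 to 0.90. It was at 0.10 without replicate 1, where it did not pass, and at 0.30 without replicate 2. The muscle form COX6A2 and the testis forms COX6B2 and COX7B2 had untreated medians of 6.18, 5.73 and 5.85, near the bottom of the scale, and did not pass.

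In complex V 12 of 16 subunits rose, 2 fell and 2 did not pass, with a median of 0.12. ATP5MC1, which encodes the c subunit of the membrane rotor, ran from 9.50 to 10.28 untreated (median 10.02) and from 9.77 to 10.53 after MNNG (median 10.34) and changed by 0.28 ± 0.034, up in 18 of 19 lines (limma adjusted p 8.75e-07). ATP5ME, subunit e of the membrane part, changed by 0.26 ± 0.025, and ATP5PD, subunit d of the peripheral stalk, by 0.23 ± 0.022, each up in 19 of 19 lines. All 4 stalk subunits tested rose (ATP5PB, ATP5PD, ATP5PF and ATP5PO, 0.086 to 0.23). Of the 5 subunits of the catalytic F1 head 2 rose, ATP5F1C and ATP5F1E. The catalytic beta subunit ATP5F1B changed by -0.042 ± 0.015 (limma adjusted p 0.0262) and the rotor subunit ATP5F1D by -0.11 ± 0.040 (limma adjusted p 0.0237). Neither of these falls passed on values as deposited, and neither passed without replicate 1, with ATP5F1B at -0.025 and ATP5F1D at -0.11. Without replicate 2 ATP5F1B, at -0.011, did not pass, and ATP5F1D passed in the opposite direction, at 0.11 (limma adjusted p 0.0292). The fall of ATP5F1B was also lost without any 1 of lines 2, 3, 5 and 15. ATP5F1A, the alpha subunit, did not pass. The pseudogene ATP5MC2P1 changed by 0.14 ± 0.050 (limma adjusted p 0.0308).

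Many genes of the respiratory chain share promoter motifs for the factors NRF1, GABP, YY1 and ERR, so the promoters were searched for 1 fixed string of each on both strands. RefSeq (GRCh38.p14) gave a window of 300 bases, 250 before and 50 after the start, for 65 of the 77 subunit genes. The strings were GCGCATGCG for NRF1, CCGGAAG for GABP and other ETS factors, AAGATGGCG for YY1 and TCAAGGTCA for ERR. CCGGAAG stood in 18 of the 65 windows (27.7%) and in 10.5% of all 27305 promoters. It stood in 17 of 50 windows of subunits that rose in the panel and in 1 of 14 of the others tested. For the YY1 string this split went the other way, with 5 of 50 (10%) and 3 of 14 (21.4%). It was 7 of 50 and 1 of 14 for the NRF1 string, and 1 of 50 and 0 of 14 for the ERR string. In TK6 CCGGAAG stood in 5 of 27 windows of falls and 3 of 10 of rises, the YY1 string in 6 and 1, and the NRF1 string in 4 and 0. The NRF1 string stood in 8 of 65 (12.3%, against 1.97% of all promoters), the YY1 string in 8 (12.3%, against 1.79%) and the ERR string in 1 (1.54%, against 0.348%). The NRF1 string can overlap its own reverse complement and was then counted once per window. No test was made of these shares.

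The 250 bases before the start are shown for 6 members. From the panel they are 3 of the larger rises (UQCR11, COX6B1 and ATP5ME) and the fall UQCRC1. From TK6 they are the largest rise and the largest fall (NDUFB1 and NDUFS7). NDUFA3 (0.29) and ATP5MC1 (0.28), not shown, rose more in the panel than ATP5ME (0.26) and COX6B1 (0.25). All 3 panel rises shown hold the GABP string in their windows, against 17 of 50 windows of subunits that rose. The 3 are examples and do not stand for the rises as a set. Capitals mark a match to a string above. UQCR11 lies at chr19:1605463-1605712 (minus strand), COX6B1 at chr19:35648073-35648322 (plus strand), ATP5ME at chr4:674277-674526 (minus strand), UQCRC1 at chr3:48609647-48609896 (minus strand), NDUFB1 at chr14:92121707-92121956 (minus strand) and NDUFS7 at chr19:1383657-1383906 (plus strand), all GRCh38.p14 and written 5′ to 3′ on the gene's strand.
UQCR11: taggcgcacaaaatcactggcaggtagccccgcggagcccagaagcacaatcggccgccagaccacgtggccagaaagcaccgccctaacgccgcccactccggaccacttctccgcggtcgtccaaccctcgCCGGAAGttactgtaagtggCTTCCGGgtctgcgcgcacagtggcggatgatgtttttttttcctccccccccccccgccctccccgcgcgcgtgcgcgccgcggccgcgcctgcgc
COX6B1: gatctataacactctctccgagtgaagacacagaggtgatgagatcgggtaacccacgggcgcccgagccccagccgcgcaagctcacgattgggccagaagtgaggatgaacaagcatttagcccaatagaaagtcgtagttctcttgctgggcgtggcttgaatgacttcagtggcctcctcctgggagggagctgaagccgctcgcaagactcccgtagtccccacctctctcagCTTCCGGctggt
ATP5ME: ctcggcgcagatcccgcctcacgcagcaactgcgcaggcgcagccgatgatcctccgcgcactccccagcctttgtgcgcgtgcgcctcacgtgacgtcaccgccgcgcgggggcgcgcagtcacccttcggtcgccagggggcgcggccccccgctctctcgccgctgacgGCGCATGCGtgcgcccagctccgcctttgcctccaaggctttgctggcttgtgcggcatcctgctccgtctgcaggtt
UQCRC1: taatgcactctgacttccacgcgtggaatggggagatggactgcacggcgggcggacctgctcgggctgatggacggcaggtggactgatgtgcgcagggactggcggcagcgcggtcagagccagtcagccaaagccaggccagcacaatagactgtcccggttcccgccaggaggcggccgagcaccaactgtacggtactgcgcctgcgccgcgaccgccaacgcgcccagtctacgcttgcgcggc
NDUFB1: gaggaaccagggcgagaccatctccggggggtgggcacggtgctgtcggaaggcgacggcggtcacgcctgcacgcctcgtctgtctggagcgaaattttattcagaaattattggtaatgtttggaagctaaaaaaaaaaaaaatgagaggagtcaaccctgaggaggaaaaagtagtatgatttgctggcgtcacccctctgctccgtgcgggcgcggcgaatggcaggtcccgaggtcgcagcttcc
NDUFS7: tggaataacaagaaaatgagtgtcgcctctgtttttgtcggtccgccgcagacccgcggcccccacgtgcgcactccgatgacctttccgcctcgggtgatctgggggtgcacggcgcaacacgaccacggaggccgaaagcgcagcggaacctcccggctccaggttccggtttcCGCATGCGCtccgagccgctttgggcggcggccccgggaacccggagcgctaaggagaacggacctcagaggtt
UQCR11 holds the GABP string in 2 places in opposite orientations, COX6B1 holds it once close to the start, ATP5ME and NDUFS7 each hold the NRF1 string once before the start, and UQCRC1 and NDUFB1 hold none of the 4 before the start. Within the 50 bases after the start UQCRC1 and NDUFS7 hold the YY1 string and ATP5ME the GABP string.

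To compare the complexes line by line, the median change of the subunits of each complex was taken in every line and the median change of all genes in that line subtracted. Over 19 panel lines this was 0.13 ± 0.051 (SD, n = 19) for complex I, 0.11 ± 0.12 for complex II, 0.15 ± 0.059 for complex III, 0.086 ± 0.030 for complex IV and 0.091 ± 0.037 for complex V. It was above 0 in 19 of 19 lines for complexes I, III, IV and V and in 15 of 19 for complex II, which rests on 3 genes and was at 0.011 without replicate 1. Complex III was above complex IV in 17 of 19 lines and above complex V in 17 of 19, while complex I was above complex IV in 15 and above complex V in 15. These orders involve differences of 0.034 to 0.064, similar in size to their SD over lines of 0.046 to 0.062. Without normalisation the panel means were 0.046, 0.026, 0.066, 0.0038 and -0.017 for complexes I to V, so the distance from the median gene rested largely on the scaling and turned for complex V. With the 22 arrays put back they were -1.20, -0.22, -0.082, -1.24 and -0.63, the opposite direction in every complex.

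**Figure D2:**
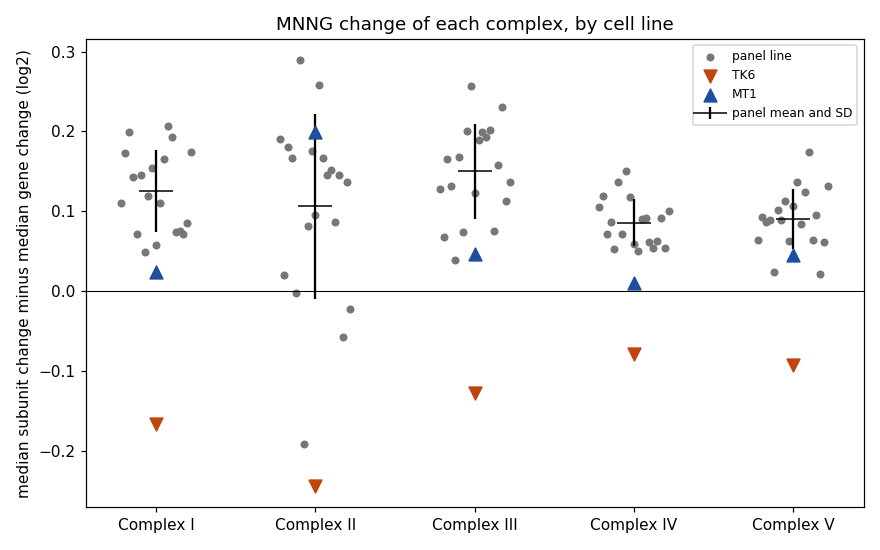
Change of each complex after MNNG, by line. The vertical axis is the median log2 change of the subunits minus the median of all genes in the same line; grey points are the 19 panel lines, bars their mean and SD, and triangles TK6 and MT1. TK6 lies below all 19 panel lines in every complex, from -0.24 in complex II to -0.078 in complex IV.

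**Figure D3:**
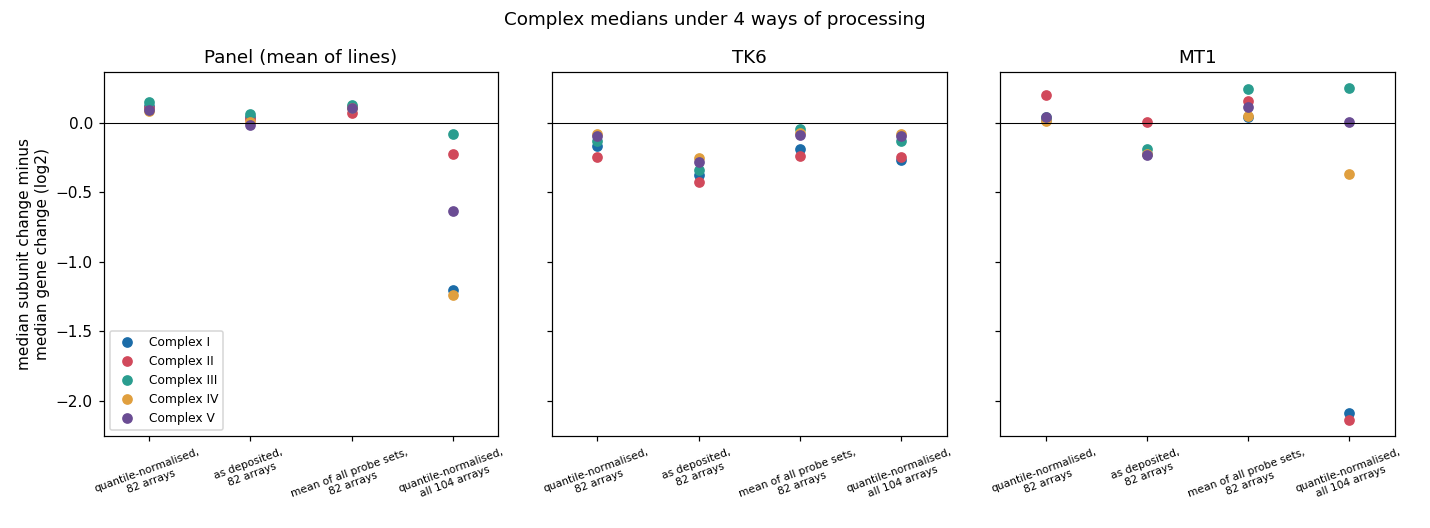
The same quantity (vertical axis, log2) under 4 ways of processing (horizontal axis), for the panel mean, TK6 and MT1, with 1 point for each complex. The ways are quantile normalisation, values as deposited and the mean of all probe sets, each on 82 arrays, and quantile normalisation with every array. The panel points lie above 0 in the first, near 0 on values as deposited and below 0 with the 22 arrays put back, while those of TK6 are below 0 in each.

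In TK6 more subunits fell than rose, with changes of over 1 log2 unit in both core and accessory subunits. TK6 was not tested against the panel. Of 74 subunits 10 rose, 32 fell and 32 did not pass (limma over all genes, 2 arrays against 2). Of all genes 21.6% rose and 19.5% fell. Of the 4986 other genes at the subunits' levels 31.2% rose and 29.8% fell. On values as deposited 25.1% and 21.2% of the 4980 other genes in that range did. The median change of the subunits was -0.16, against -0.029 for all genes and -0.0021 for the other genes at their levels. The members ranged from -1.81 to 0.81. Relative to the median gene 7 rose and 38 fell, where 19.8% and 22.4% of all genes did. Without normalisation 7 rose and 30 fell, and after centring on array medians 0 rose and 23 fell. With the 22 arrays put back, none of which is a TK6 array, 0 rose and 1 fell. NDUFS7 then changed by -1.82 with a limma adjusted p of 0.484. Without the second TK6 MNNG array 6 rose. The complex medians, less the median gene, were -0.17, -0.24, -0.13, -0.078 and -0.092 for complexes I to V. They were below 0 on values as deposited too, at -0.42 to -0.25.

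The largest falls in TK6 reached complexes I, III and V. NDUFS7, the core subunit with the last iron-sulfur cluster before ubiquinone, was at 9.28 and 9.18 untreated and 7.46 and 7.38 after MNNG. The MNNG arrays lay far below the untreated ones, with a change of -1.81 ± 0.11 (SE; limma adjusted p 9.71e-18). ATP5F1D, the delta subunit of the ATP synthase rotor, was at 9.83 and 10.33 untreated and 8.56 and 8.07 after MNNG. Its change of -1.77 ± 0.34 had a wider error, and both pairs of duplicates lay far apart (limma adjusted p 3.42e-05). UQCRC1 was at 10.95 and 11.19 untreated and 10.04 and 9.81 after MNNG, a change of -1.14 ± 0.17 (limma adjusted p 5.52e-07). CYC1, its neighbour in complex III, changed by -1.04. NDUFS4, which rose in every panel line, was at 9.53 and 9.52 untreated and 8.35 and 8.43 after MNNG, a change of -1.13 ± 0.094 (limma adjusted p 2.52e-13). NDUFA9 was at 9.95 and 9.88 untreated and 9.05 and 8.96 after MNNG and fell by 0.91 (limma adjusted p 6.48e-13). In all of these the untreated and MNNG arrays did not overlap.

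The 4 largest rises in TK6 were in small accessory subunits. NDUFB1, in the membrane arm of complex I, was at 10.72 and 10.70 untreated and 11.52 and 11.51 after MNNG, a change of 0.81 ± 0.091 (limma adjusted p 9.24e-10). UQCR10, a small subunit of complex III, was at 10.94 and 10.96 untreated and 11.67 and 11.66 after MNNG, a change of 0.72 ± 0.072 (limma adjusted p 5.10e-11). NDUFB3 was at 10.15 and 10.19 untreated and 10.70 and 10.77 after MNNG and rose by 0.56 ± 0.076 (limma adjusted p 6.49e-08). ATP5MK, a small membrane subunit of ATP synthase, was at 11.65 and 11.63 untreated and 12.19 and 12.21 after MNNG and rose by 0.56 ± 0.063 (limma adjusted p 1.03e-09). These 4 had higher values in each MNNG array than in each untreated array, but none passed after centring deposited values on array medians, with changes of 0.32 to 0.53. NDUFB8 was at 10.96 and 10.74 untreated and 10.72 and 10.82 after MNNG and its change of -0.079 ± 0.12 did not pass. It was at 0.028 without the first untreated array and -0.19 without the second. Its other probe sets fell by 0.62 and 0.88.

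By complex, 6 rose and 17 fell of 33 in complex I, 0 and 2 of 3 in complex II, 1 and 3 of 7 in complex III, 0 and 3 of 15 in complex IV, and 3 and 7 of 16 in complex V. The members of complex IV ranged from -0.33 to 0.16 with an SD of 0.14, and the 3 of complex II from -0.36 to -0.27 with an SD of 0.051, against 0.59 in complex I, 0.66 in complex III and 0.53 in complex V. Of the 5 core subunits of complex I 4 fell, and NDUFS3, at -0.041, did not pass. Of the 5 subunits of the F1 head 3 fell. The 3 called subunits of complex IV were COX5A, COX5B and COX7C, at -0.29, -0.17 and -0.24. Plasma cell markers moved in TK6 as well: PRDM1, TNFRSF17 and SDC1 changed by 2.25, 2.30 and 1.40, and XBP1 by -1.18. In the panel all 4 of these rose, by 0.17 to 0.57. Of 6 B-cell markers 2 rose and 3 fell in TK6, with CD79A at -1.47 and MS4A1 at 0.60, and 0 rose and 3 fell in the panel. NKG7, of NK cells, fell by 1.16 in TK6, GNLY by 0.33 and COL1A2, of fibroblasts, by 0.39. The part of these markers in the subunit changes was not tested.

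**Figure D4:**
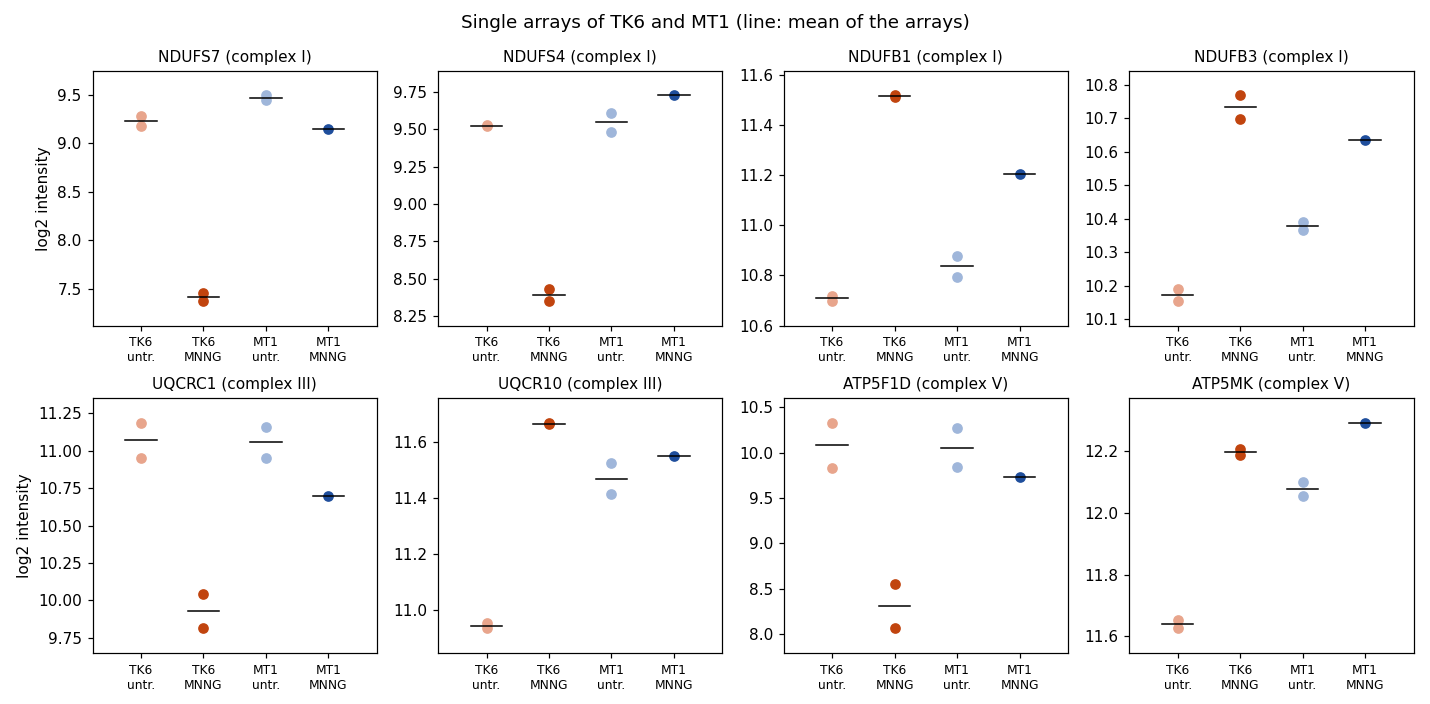
Levels of 8 subunits in the single arrays of TK6 and MT1. The vertical axes are log2 intensity with a scale of their own for each gene, points are arrays and lines their means; MT1 after MNNG has 1 array. In TK6, NDUFS7, NDUFS4, UQCRC1 and ATP5F1D are lower in both MNNG arrays than in both untreated ones, and NDUFB1, NDUFB3, UQCR10 and ATP5MK are higher.

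In MT1, with 1 MNNG array kept, 0 of 74 subunits rose and 1 fell, where 2.36% of all genes rose and 1.21% fell (limma, the spread taken from all groups). Without adjustment, 14 subunits were higher and 4 lower at p under 0.05 (18.9% and 5.41%), as were 10.1% and 5.18% of all genes. The median change was 0.061, against 0.033 for all genes. Relative to the median gene 0 rose and 2 fell, where 1.15% and 1.65% of all genes did. NDUFV1, the flavin subunit that fell in every panel line, was at 10.69 and 10.59 untreated and 10.09 after MNNG, and its change was -0.55 ± 0.12 (limma adjusted p 0.00581). In TK6 it was at 10.40 and 10.50 untreated and 9.74 and 9.72 after MNNG and changed by -0.72. The MT1 call did not hold on values as deposited, centred or not, with the left-out arrays put back, with the mean of its probe sets, with the TK6 and MT1 arrays fitted alone, or without the first untreated MT1 array, where the change was -0.50. The complex medians of MT1 less the median gene were 0.024, 0.20, 0.047, 0.011 and 0.046. On values as deposited they were -0.23, 0.0087, -0.18, -0.23 and -0.23, so they have no settled direction. With 1 of the untreated MT1 arrays left out, complexes I, IV and V turned sign, over -0.011 to 0.068, -0.0040 to -0.0018 and -0.014 to 0.084.

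The difference between the lines was tested directly. The change was lower in TK6 than in MT1 for 29 of 74 subunits and higher for 5, where 12.5% of all genes were lower and 12.2% higher (limma, interaction of line and treatment). Without normalisation these counts were 17 and 1, with the TK6 and MT1 arrays alone 15 and 3, and after centring on array medians 2 and 0. With the 22 arrays put back both were 0. Without the second untreated MT1 array 3 were higher. NDUFS7 was at 9.49 and 9.44 untreated and 9.15 after MNNG in MT1, and the difference of changes was -1.49 ± 0.17 (limma adjusted p 3.35e-09). NDUFS4 was at 9.48 and 9.61 untreated and 9.73 after MNNG in MT1, a difference of -1.31 ± 0.15 (limma adjusted p 3.22e-09). Both kept the call under the 3 other scalings of the 82 arrays.

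ATP5F1D was at 9.84 and 10.27 untreated and 9.74 after MNNG in MT1. Its difference of -1.45 ± 0.54 passed narrowly (limma adjusted p 0.0432), and on values as deposited, with -1.51, it did not (adjusted p 0.0651). NDUFC1, a small membrane subunit of complex I, and NDUFA7, in the matrix arm, had differences of -1.05 ± 0.24 and -0.99 ± 0.18. Both genes fell in TK6, by 1.08 and 1.02, and were at -0.026 and -0.030 in MT1. The pseudogene ATP5MC2P1 had a difference of -0.96 ± 0.32. The 5 subunits with a higher change in TK6 were NDUFA12, NDUFB1, NDUFB2, UQCR10 and ATP5MK.

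**Figure D5:**
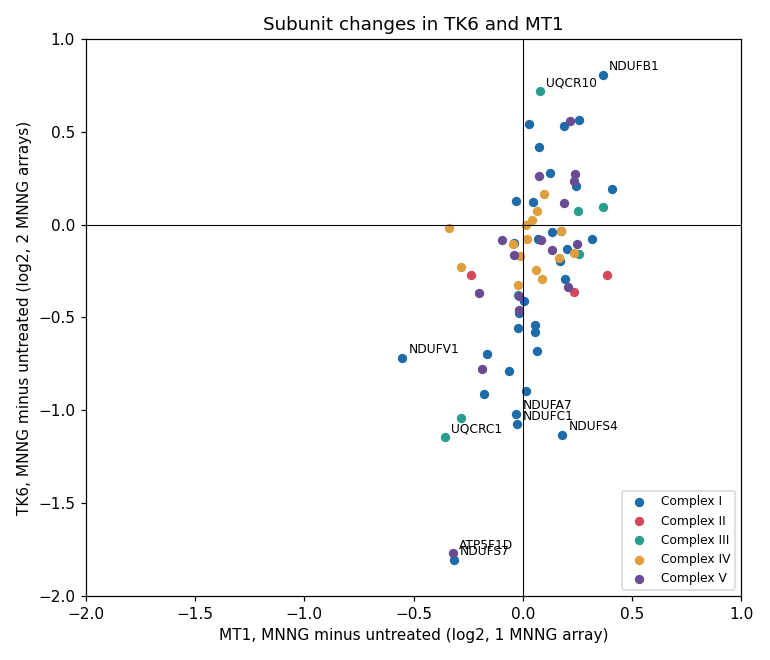
Log2 change after MNNG of the 74 subunits in MT1 (horizontal axis, 1 MNNG array) and TK6 (vertical axis, 2 MNNG arrays), coloured by complex, on equal scales. The points spread from -1.81 to 0.81 in TK6 and from -0.55 to 0.41 in MT1.

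Before treatment, MT1 had higher levels than TK6 for 26 subunits and lower levels for 2, where 13.6% of all genes were higher and 11.7% lower (limma, 2 arrays against 2). The median difference was 0.17, against 0.012 for all genes. Without normalisation 19 were higher and 1 lower, and after centring on array medians 2 and 0. With the 22 arrays put back both were 0, and with any 1 of the 4 untreated arrays left out 1 was lower. These differences use the same untreated TK6 and MT1 arrays as the changes above. ATP5MC1 was at 9.73 and 9.70 in TK6 and 10.55 and 10.41 in MT1, a difference of 0.77 ± 0.082 (limma adjusted p 5.71e-10). NDUFB2, a small membrane subunit of complex I, was at 9.87 and 9.78 in TK6 and 10.51 and 10.44 in MT1, a difference of 0.65 ± 0.094 (limma adjusted p 4.39e-07). In both genes the arrays of the lines did not overlap.

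NDUFV3, a subunit beside the flavin site, and NDUFA8, on the intermembrane face, were higher in MT1 by 0.63 ± 0.17 and 0.55 ± 0.13. The call of NDUFA8 did not hold without the first MT1 array or without the second TK6 array, with a difference of 0.35 in each, and that of NDUFV3 not without the second MT1 array or the first TK6 array. COX4I1, the common form of subunit 4, was at 12.40 and 12.36 in TK6 and 12.05 and 11.96 in MT1. It was lower in MT1, with a difference of -0.38 (limma adjusted p 4.28e-07). SDHC was at -0.26 and close to the threshold (limma adjusted p 0.0471). The calls in complex I were 15 higher of 33, in complex II 0 higher and 1 lower of 3, in complex III 2 higher of 7, in complex IV 3 higher and 1 lower of 15, and in complex V 6 higher of 16.

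Among the 24 untreated panel lines, the levels of 63 of 74 subunits differed between lines, where 68.1% of all genes did (limma F test on single arrays). With the 22 arrays put back this count was 0. The test took its error from duplicate arrays, which may not be separate cultures. The spread between lines was modest. The ratio of the highest to the lowest line had a median of 1.44-fold over the subunits and 1.74-fold over all genes. By complex, 31 of 33, 3 of 3, 7 of 7, 9 of 15 and 13 of 16 subunits of complexes I to V differed. NDUFA12, a peripheral accessory subunit of complex I, ran from 10.54 to 11.39 with a median of 10.97 (F = 21.1, limma adjusted p 1.44e-14). NDUFS6, which sits near an iron-sulfur cluster in the matrix arm, ran from 9.96 to 10.80 with a median of 10.58. ATP5MC1 had a wider spread, from 9.50 to 10.46 with a median of 10.07, and so did NDUFA6, from 10.43 to 11.36 with a median of 10.71. ATP5MC2 and NDUFA9 completed the 6 largest F values, with highest over lowest of 1.64-fold and 1.70-fold. For ATP5MC1, NDUFS6, NDUFA6 and NDUFA9 the lowest level was in the same line, line 12. For NDUFA12 and ATP5MC2 the lowest levels were in line 23 and line 13.

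The response to MNNG differed between lines for 1 of 74 subunits, where 6.13% of all genes differed (limma F test over the panel lines). It was ATP5MC2, another c subunit gene, whose change ran from -0.23 to 0.21 over 19 lines with a median of 0.015 (F = 3.29, adjusted p 0.0215). It was higher in 12 lines and lower in 7, and its mean change over the panel did not pass. In TK6 it fell, from 11.51 and 11.38 to 10.75 and 10.58. The call was lost without line 10 and without line 17, and on values as deposited. It was also lost after centring on array medians, without the trend, and with the 22 arrays put back. Leaving out line 16 gave 4 called subunits. That line kept no MNNG array, so it entered this test only through the spread between its untreated arrays. SDHC and NDUFA9 were next by F, with adjusted p of 0.0634 and 0.0916.

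Of the genes whose products assemble the complexes, several in each list rose in the panel. The lists here were read under quantile normalisation only, and their counts stand beside shares of all genes of 28.7% that rose and 13.8% that fell in the panel, and 21.6% and 19.5% in TK6. Of the complex I assembly genes 10 of 14 rose and 0 fell, with the largest changes in NDUFAF8 (0.35), NDUFAF4 (0.30) and NDUFAF6 (0.29). Of the complex IV assembly genes 13 of 21 rose and 2 fell. COX14 changed by 0.38, COA7 by 0.37 and COX20 by 0.28, while LRPPRC, which stabilises mitochondrial transcripts, fell by 0.27. For complex II 3 of 4 rose, for complex III 4 of 5 and for ATP synthase 3 of 5, with 0 falls in each, led by SDHAF3 (0.32), LYRM7 (0.32) and FMC1 (0.27). Median changes of these 5 lists were 0.11 to 0.23. In TK6 the complex I assembly list had 1 rise and 6 falls, with NDUFAF8 at 1.59 and NDUFAF3 at -1.44, and the complex IV list 6 rises and 7 falls.

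Among the carriers between the complexes, 8 of 12 genes for cytochrome c and coenzyme Q synthesis rose in the panel and 1 fell. CYCS, cytochrome c itself, changed by 0.17 (limma adjusted p 6.82e-05) and COQ3, a methyltransferase of coenzyme Q synthesis, by 0.27. Of regulators of these genes 5 of 11 rose and 1 fell, among them ESRRA (0.22), TFAM (0.21), TFB2M (0.18) and NRF1 (0.096), while GABPA and YY1 did not pass. In the citrate cycle, which feeds the chain, 3 of 11 genes rose and 5 fell, with a median of -0.034. DLST and OGDH, subunits of the oxoglutarate dehydrogenase complex, changed by -0.62 (limma adjusted p 2.58e-07) and -0.57 (limma adjusted p 5.79e-08), and CS, citrate synthase, by -0.25 (limma adjusted p 1.13e-06). In TK6 0 of the 11 rose and 9 fell.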

How the data were processed

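The deposited values are array intensities on a linear scale, summarised by the authors with PLIER, per the submitters' processing notes, and run from a floor of 16 to 65535. No source used here names a PLIER version or a batch. The arrays of the 26 lines hold 54675 probe sets. The number of arrays limits the precision. Intensities plus a pseudocount of 16 were put on a log2 scale and quantile normalised over the 82 arrays kept (limma 3.58.1, R 4.3.3). Of the probe sets 41097 had 1 gene symbol, 1801 several and 11777 none, and only the first kind was used. Each gene took its brightest probe set by mean, and genes in the dimmest 30% were not tested. No genome coordinates of the probe sets were used.

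Models were limma with a trended prior and Benjamini-Hochberg adjustment over all 13842 genes at 0.05: duplicates averaged and the line as a block for the panel, and 1 mean per line and treatment for TK6, MT1, their difference and the F tests. A group with 1 array took the spread of the rest. Replicate numbers did not pair arrays: in 9 lines with all 4 arrays, the differences between duplicates correlated between treatments at -0.62 to 0.14. The -0.62 was line 14 alone, and the others lay at -0.20 to 0.14. Line 14 also had the smallest median change over all genes of the panel lines, 0.0028. It was kept, and the reason for its values was not tested. Named genes were the 4 marker genes, the largest called changes of each comparison (up to 3 each way per complex in the panel, 4 each way in TK6, MT1 and untreated lines, 6 for differences), tissue forms, untested members and members with discordant probe sets, with others as examples chosen after their values were seen. The members, lists and rules were chosen with earlier results of these data known. The scripts were tested on simulated data. Figures used matplotlib 3.10.9. Alternatives were pseudocounts 1 and 64, 3 other scalings, a 50% filter or none, probe sets averaged per gene, every array kept, no trend, a replicate block, no line block, TK6 and MT1 alone, and leaving out each line, replicate or array.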

Additional observations from a re-analysis of the deposited data

Results flagged for a closer look

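These results differ between lines by a test of the difference itself, and no cause was tested. The change after MNNG was lower in TK6 than in MT1 for 29 of 74 subunits and higher for 5 by the limma interaction. Of all genes 12.5% were lower and 12.2% higher. Fewer subunits were called on values as deposited or centred on array medians, and no subunit passed with the left-out arrays put back. NDUFS7 had a difference of -1.49, ATP5F1D of -1.45, NDUFS4 of -1.31, NDUFC1 of -1.05, NDUFA7 of -0.99 and the pseudogene ATP5MC2P1 of -0.96, each with 2 MNNG arrays of TK6 and 1 of MT1. Between panel lines the response of ATP5MC2 differed, with F = 3.29. The calls of ATP5F1D and ATP5MC2 did not hold on values as deposited, and that of ATP5MC2 was also lost without certain single lines. The labelled groups have 2 arrays each, too few to look for arrays that stand apart within a group.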

How the results depend on the processing

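Under pseudocounts of 1 and 64 and without a filter, counts stayed within 1.5 times of those reported, except that lower levels in MT1 were 1 at pseudocount 64 and without the filter. With the 50% filter 2 subunits rose in MT1. Complex IV in MT1 stood at 0.0046, 0.021, 0.029 and 0.016 under these. The mean of all probe sets gave 0 falls in MT1, 4 lower levels in MT1, a complex III median of -0.045 in TK6, and 0.24 and 0.054 for complexes III and IV in MT1. NDUFA10 then changed by 0.0020 in the panel. Without the trend 0 responses differed between lines and 1 level was lower in MT1, and without the line block 2 subunits fell in the panel.

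On values as deposited 2 subunits fell in the panel, 0 in MT1, TK6 minus MT1 had 1 higher and 17 lower, 1 level was lower in MT1 and 0 responses differed. Centring these on array medians gave 0 rises in the panel and TK6, 0 falls in MT1, 0 higher and 2 lower for TK6 minus MT1, 2 higher and 0 lower levels in MT1 and 0 responses that differed. NDUFA9 was then at -0.11 and SDHC at -0.022. Both settings gave complex medians from I to V of 0.046, 0.026, 0.066, 0.0038, -0.017 for the panel, -0.38, -0.42, -0.34, -0.25, -0.28 for TK6 and -0.23, 0.0087, -0.18, -0.23, -0.23 for MT1. Relative to the median gene, 8 fell in the panel, 2 in MT1, 1 level was lower in MT1 and NDUFA9 was at -0.0056.

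With the 22 arrays put back 15 subunits rose and 42 fell in the panel, and TK6 had 0 rises and 1 fall. MT1 had 0 falls, and 0 subunits passed for the difference between the lines, untreated MT1 against TK6 and both F tests. Complex medians were -1.20, -0.22, -0.082, -1.24, -0.63 in the panel, -0.27 for complex I in TK6, and -2.09, -2.14, 0.25, -0.36, 0.0057 in MT1. Changes turned for NDUFB8 (-0.43), NDUFB3 (-1.66), NDUFA9 (-1.84), NDUFA3 (-1.42), NDUFS4 (-0.56), SDHD (-0.27), UQCR11 (-0.88), COX6B1 (-1.23), COX7B (-2.11), ATP5MC1 (-1.52), ATP5PD (-0.48), ATP5F1D (0.15) and ATP5F1B (0.20) in the panel, and for NDUFS7 (0.18) and NDUFC1 (1.36) in TK6 minus MT1. The cause was not tested.

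The replicate block, fitted on single arrays although the numbers did not pair them, gave 3 falls in the panel and 2 rises in MT1; it moved no other count by over 1.5 times. TK6 and MT1 arrays alone gave 0 falls in MT1, 3 higher and 15 lower for the difference, and 16 higher and 1 lower untreated levels in MT1.

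Leaving out each line, replicate or array gave 29 to 58 rises and 1 to 6 falls in the panel, the lowest of both without replicate 1, 6 to 10 rises in TK6, 0 to 1 falls in MT1, 3 to 5 higher for TK6 minus MT1, 1 lower level in MT1 and 0 to 4 responses that differed. Complex medians ran in TK6 over -0.28 to -0.13 (I), -0.42 to -0.20 (II), -0.21 to -0.051 (III), -0.13 to -0.035 (IV) and -0.17 to -0.051 (V), and in MT1 over -0.011 to 0.068, 0.15 to 0.25, 0.00062 to 0.092, -0.0040 to -0.0018 and -0.014 to 0.084. In the panel they ran over 0.11 to 0.16, 0.011 to 0.12, 0.14 to 0.17, 0.073 to 0.099 and 0.082 to 0.10, with complex II lowest without replicate 1. NDUFA9 ranged over -0.013 to 0.095 and ATP5F1D over -0.13 to 0.11 in the panel, and NDUFB8 over -0.19 to 0.028 in TK6. Leaving out an array lowered the count of lower changes in TK6 than in MT1 in every fit that could be run. It also lowered the count of higher untreated levels in MT1 each time. Without replicate 1 or 2 of every group, TK6, MT1 and the F tests were not run because no spread between arrays was left. Intensities near the floor of 16 limit what can be measured of the dim tissue forms.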
